A study of Mus musculus with 2 samples.

Results

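A set of 9 genes of the interferon response was followed across the cell types of the mouse esophagus: Isg15, Ifit1, Ifit2, Ifit3, Irf7, Oas1a, Oasl2, Bst2 and Ifitm3. They were chosen by name, as 9 of the 18595 genes in the deposited table, and all 9 were found. The tissue came from K5CreERT2::Keap1 floxB/floxB mice, called Keap1 cKO here, and from Keap1 floxB/floxB mice, called control here. Both genotypes were hybrids of C57BL/6J and BALB/c and both carried the floxB alleles of Keap1, so the Cre transgene is the difference that the labels give. The keratin 5 promoter, active in the basal cells of stratified epithelia, drives this tamoxifen-dependent Cre. Esophagi were freed of muscle, digested with trypsin-EDTA and profiled with 10x Genomics 3′ single-cell RNA sequencing, in which each captured molecule carries a unique molecular identifier (UMI). The sources used here do not give the age, the time after induction, the number of mice in each library or the deleted exons.

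There was 1 library per genotype, so no difference below has a replicate check and no test between genotypes was possible. The Keap1 cKO library held 2381 cells with 26036522 UMIs, and the control library held 2472 cells with 30501227 UMIs. UMIs were summed over the cells of each of the authors' 19 clusters and given as counts per 1000000 UMIs (CPM). Ratios are log2 of Keap1 cKO CPM over control CPM, and the 95% intervals after them cover counting error only. A ratio was formed in the 12 clusters with at least 50 cells in each library and for genes with at least 20 UMIs over both, which is what "measured" means below. A gene is called higher or lower when the ratio is at least 1.5-fold. Keap1, the adaptor that marks NRF2 for degradation, had 44.5 CPM in Keap1 cKO epithelial cells and 69.8 CPM in control epithelial cells, a log2 ratio of -0.65 (-0.83 to -0.47). It was also lower in T cell cluster 3 (-1.11, -1.71 to -0.47) and near control in fibroblast cluster 1 (-0.04, -0.31 to 0.23). Fibroblast cluster 5 (-0.48, -0.84 to -0.13) and epithelial cluster 4 (-0.40, -0.67 to -0.13) lay below control by under 1.5-fold. A 3′ count may lie outside the deleted part, so this value says little of the deletion itself.

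Interferons are secreted proteins that warn cells of infection. Type I interferons such as IFN-beta bind a receptor made of IFNAR1 and IFNAR2 and lead to binding at the interferon-stimulated response element in front of their target genes. Interferon gamma uses a separate receptor and has an overlapping set of target genes. Isg15 encodes a ubiquitin-like protein that is joined to other proteins, and the Ifit genes encode proteins that bind viral RNA. Irf7 encodes the transcription factor that amplifies type I interferon production. Oas1a makes 2′-5′ oligoadenylates on sensing double-stranded RNA, and Oasl2 is a related protein. Bst2, or tetherin, holds budding virus particles at the cell surface, and Ifitm3 blocks the fusion of viruses with endosomal membranes.

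The genes lie in a few loci of the mm10 genome. Ifit2 (chr19:34550694-34576419), Ifit3 (chr19:34583531-34588731) and Ifit1 (chr19:34640871-34650009) are neighbours on the plus strand. Irf7 (chr7:141262706-141266481) and Ifitm3 (chr7:141009586-141010770) lie on the minus strand of chromosome 7. Oas1a (chr5:120896256-120907521) and Oasl2 (chr5:114896936-114912234) share chromosome 5, while Isg15 (chr4:156199424-156200818) and Bst2 (chr8:71534255-71537456) stand alone. Oas1a and Ifit3 have near-identical copies, Oas1g and Ifit3b, and Ifitm3 belongs to a family of similar genes. The sources used here do not say how reads shared by such copies were counted, so the values of these 3 genes are uncertain to that extent.

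The core of the interferon-stimulated response element was searched as GAAANNGAAA on both strands (TTTCNNTTTC on the reverse) in RefSeq promoter windows of GRCm38.p6, each running from 250 bases before to 50 after a gene's start. All 9 members had a window. The core was found for 6 of 9 members (66.7%), namely Isg15, Ifit1, Ifit3, Oas1a, Bst2 and Ifitm3, against 1079 of 27025 genes with a window (3.99%). Isg15 held 3 matches and the other five held 2 each. The matches overlap one another in Isg15, Oas1a and Bst2, and those of Ifitm3 lie after the start. A match is a description of the letters and not a proven binding site, and the windows of Ifit2, Irf7 and Oasl2 do not hold these letters. The upstream bases of Isg15 and Ifit3 are shown as 2 members whose ratios ran differently in the same cells, with the matches in capitals. For 4 other members a stretch of 30 bases around 1 match is shown.
Isg15, chr4:156200819-156201068, minus strand: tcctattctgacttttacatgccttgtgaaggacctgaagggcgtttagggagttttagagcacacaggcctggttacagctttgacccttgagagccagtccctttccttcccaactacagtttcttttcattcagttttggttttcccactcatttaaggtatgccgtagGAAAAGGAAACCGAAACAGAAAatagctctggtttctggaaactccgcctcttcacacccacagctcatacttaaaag
Ifit3, chr19:34583279-34583528, plus strand: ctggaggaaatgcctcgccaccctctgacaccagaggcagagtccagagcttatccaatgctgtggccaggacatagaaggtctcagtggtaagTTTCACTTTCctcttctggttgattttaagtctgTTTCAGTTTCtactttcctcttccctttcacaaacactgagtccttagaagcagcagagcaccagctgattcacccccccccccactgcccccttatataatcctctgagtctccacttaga
Ifit1, chr19:34640775-34640804, plus strand: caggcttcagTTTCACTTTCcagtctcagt
Oas1a, chr5:120907520-120907549, minus strand: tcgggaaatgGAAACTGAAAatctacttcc
Bst2, chr8:71537577-71537606, minus strand: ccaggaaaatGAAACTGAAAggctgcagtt
Ifitm3, chr7:141010706-141010735, minus strand: aaacttctgaGAAACCGAAActgccgcaga

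Across the tissue, 7 members were found in few cells and 2 in many. Isg15 had a UMI in 427 of all cells (8.80%), Ifit1 in 265 (5.46%), Ifit2 in 446 (9.19%) and Ifit3 in 247 (5.09%). Irf7 had a UMI in 494 cells (10.2%), Oas1a in 186 (3.83%) and Oasl2 in 531 (10.9%). Bst2 had a UMI in 1719 cells (35.4%) and Ifitm3 in 3646 (75.1%). The first 7 are described together below, a grouping made after these values were seen. Fibroblasts, myeloid cells, endothelial cells and a small epithelial cluster, cluster 14, held most of what was seen of them, while keratinocytes and T cells held little. Of 52 member-by-cluster ratios that were measured, 25 were higher in Keap1 cKO and 9 were lower. The shares over all measured genes of a cluster ran from 13.2% to 26.3% higher and from 9.34% to 30.2% lower.

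**Figure D1:**
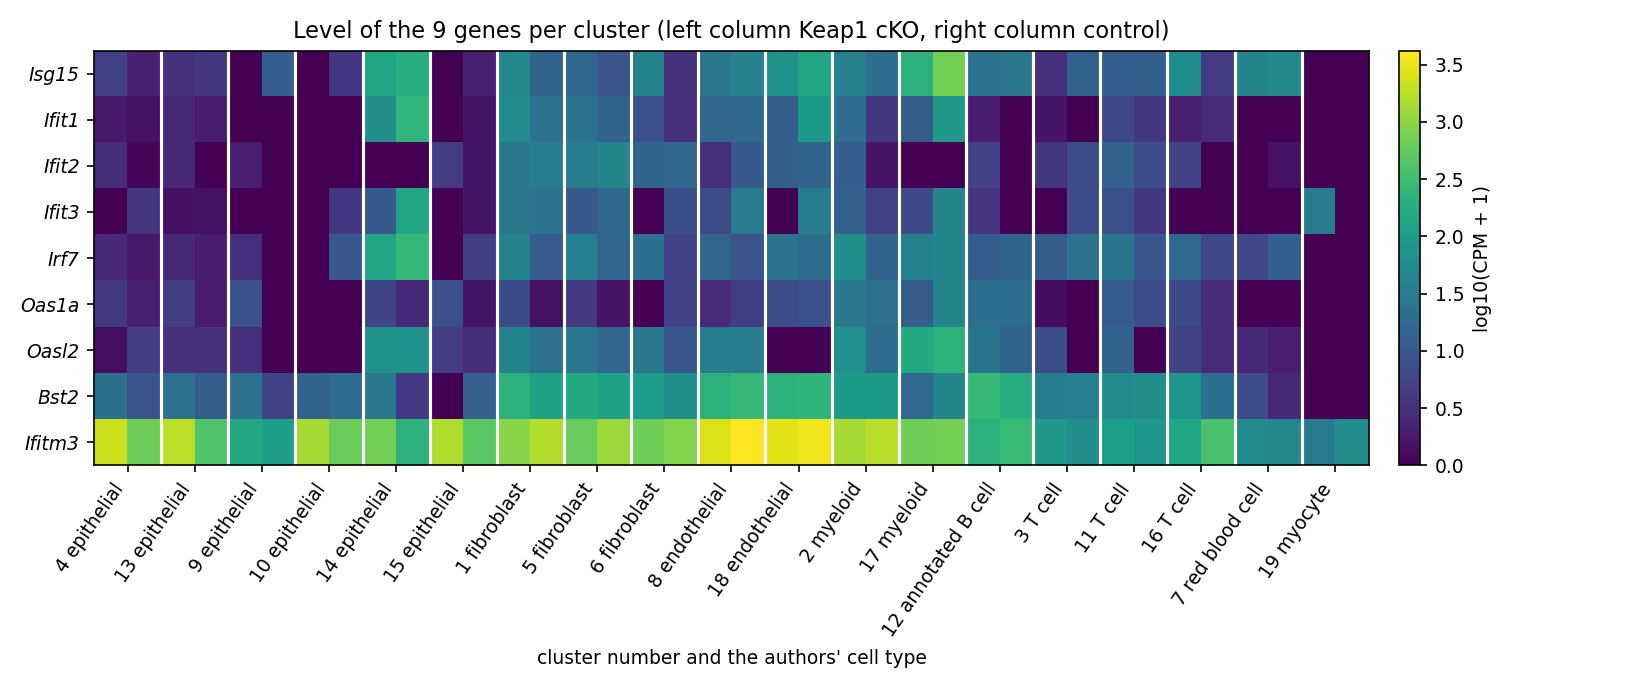
Level of the 9 genes in each of the 19 clusters, as log10(CPM + 1), with Keap1 cKO in the left column and control in the right column of each pair. Ifitm3 and Bst2 are bright in most clusters, and the other members are brightest in fibroblast, endothelial, myeloid and cluster 14 cells.

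The larger fibroblast cluster, cluster 1, was led by genes such as Inmt, Cilp and Lum and held 187 Keap1 cKO and 545 control cells. In it, 5 of 8 measured members were higher in Keap1 cKO and 1 was lower, where 13.9% of the 11522 genes measured there were higher and 16.1% were lower. The members' median log2 ratio was 0.88 and that of all genes was -0.05. The higher members were Isg15, Ifit1, Irf7, Oasl2 and Bst2, and the lower one was Ifitm3.

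Irf7, the transcription factor of the group, had 116 UMIs (40.7 CPM) in Keap1 cKO cells of cluster 1 and 67 UMIs (10.1 CPM) in control cells, a log2 ratio of 2.01 (1.56 to 2.47). Isg15 had 143 UMIs (50.1 CPM) in Keap1 cKO cells and 91 UMIs (13.7 CPM) in control cells, 3.65-fold apart (log2 1.87, 1.48 to 2.26). It came to a log2 ratio of 1.37 when the deepest cells were left out. Both genes stood several-fold above control, and both intervals lie well clear of 0.

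The 3 Ifit genes differed from one another in these fibroblasts. Ifit1 had 54.7 CPM in Keap1 cKO and 21.6 CPM in control (1.34, 1.01 to 1.68), and the ratio was 0.77 without the 3 cells of each library richest in members. Ifit2 had 26.99 CPM in Keap1 cKO and 32.4 CPM in control (-0.26, -0.66 to 0.12). Ifit3 had 26.6 CPM in Keap1 cKO and 22.9 CPM in control (0.22, -0.20 to 0.62), and the ratio turned to -0.28 without those 3 cells and to -0.71 with each cell thinned to 3000 UMIs. Ifit1 alone was called higher, and the intervals of its 2 neighbours include 0. Ifit3b, the near-copy of Ifit3, had 26 UMIs in Keap1 cKO and 28 in control.

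Oasl2 had 41.0 CPM in Keap1 cKO and 21.7 CPM in control of cluster 1 (0.92, 0.55 to 1.28). Oas1a was under the minimum of 20 UMIs, with 16 UMIs in Keap1 cKO and 3 in control. Bst2 had 209 CPM in Keap1 cKO and 116 CPM in control (0.85, 0.69 to 1.004). Ifitm3 ran the other way, with 955 CPM in Keap1 cKO and 1622 CPM in control (-0.76, -0.83 to -0.70). The 7 members other than Bst2 and Ifitm3 summed to 246 CPM in Keap1 cKO and 123 CPM in control.

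Cluster 5, the smaller fibroblast cluster with 126 Keap1 cKO and 271 control cells, had none of the fixed markers among its 10 leading genes, yet the fibroblast markers summed to 65574 CPM in Keap1 cKO and 38331 CPM in control, beside 67649 CPM in Keap1 cKO and 41428 CPM in control of cluster 1. Here 4 of 8 measured members were higher and 2 were lower, where 13.2% of all measured genes were higher and 18.2% were lower. Irf7 had 35.8 CPM in Keap1 cKO and 13.998 CPM in control (1.36, 0.84 to 1.88). Isg15 had 15.5 CPM in Keap1 cKO and 7.92 CPM in control (0.97, 0.22 to 1.72), a ratio that came to 0.05 without the 3 cells richest in members. The Irf7 ratio was 1.23 without those cells, so it depended less on them.

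Ifit1 had 22.6 CPM in Keap1 cKO and 12.9 CPM in control of cluster 5 (0.80, 0.21 to 1.40), and Oasl2 had 25.2 CPM in Keap1 cKO and 14.8 CPM in control (0.77, 0.21 to 1.33). Ifit3 had 9.29 CPM in Keap1 cKO and 15.8 CPM in control (-0.77, -1.56 to -0.03). Ifitm3 had 592 CPM in Keap1 cKO and 1203 CPM in control (-1.02, -1.11 to -0.94). Ifit1 and Oasl2 ran one way and Ifit3 and Ifitm3 the other. Ifit2 (33.6 CPM in Keap1 cKO, 44.1 CPM in control) and Bst2 (157 CPM in Keap1 cKO, 115 CPM in control) were under 1.5-fold apart, and Oas1a had 7 UMIs in Keap1 cKO and 2 in control.

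Markers of other cells were low but unequal in the fibroblasts. In cluster 1, 7 of 7 T cell markers were seen and summed to 154 CPM in Keap1 cKO and 55.6 CPM in control. All 8 macrophage or monocyte markers were seen and summed to 107 CPM in Keap1 cKO and 76.6 CPM in control. The neutrophil list summed to 216 CPM in Keap1 cKO and 1.36 CPM in control. Of its genes, Cxcr2 and Ly6g were at 0 in Keap1 cKO, and the others are not given singly. Siglech and Ccr9 are 2 of the listed markers of plasmacytoid dendritic cells, which make much type I interferon. They were at 0 in both libraries of cluster 1, and cluster 5 held 1 Siglech UMI in Keap1 cKO. In myeloid cluster 2, Siglech had 0 UMIs in Keap1 cKO and 3 in control, and Ccr9 had 2 in Keap1 cKO and 0 in control. The part of other cells in the fibroblast ratios was not tested beyond 1 setting. Without the cells led by markers of another type, Irf7 was at 2.0, Isg15 at 1.68 and Ifit1 at 1.19 in cluster 1.

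Cluster 2 was led by Retnla, Ccl6, F13a1, Lyz2, C1qb, C1qa and Mrc1, genes of macrophages and monocytes, and held 356 Keap1 cKO and 169 control cells. All 9 members were measured, and 6 were higher and none lower in Keap1 cKO, where 15.8% of all measured genes were higher and 10.9% were lower. The members' median log2 ratio was 1.60 and that of all genes was 0.08. The higher members were the 3 Ifit genes, Irf7, Oasl2 and Isg15.

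Irf7 had 154 UMIs (63.6 CPM) in Keap1 cKO cells of cluster 2 and 24 UMIs (13.5 CPM) in control cells (2.24, 1.61 to 2.92), and the ratio was 1.27 in thinned cells. Oasl2 had 158 UMIs (65.2 CPM) in Keap1 cKO and 31 UMIs (17.4 CPM) in control (1.90, 1.34 to 2.51). Isg15 had 36.7 CPM in Keap1 cKO and 20.3 CPM in control (0.86, 0.29 to 1.46). All 3 intervals exclude 0, with Isg15 nearest to it.

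Ifit1 had 45 UMIs (18.6 CPM) in Keap1 cKO and 5 UMIs (2.81 CPM) in control of cluster 2 (2.72, 1.39 to 4.41). Ifit3 had 29 UMIs in Keap1 cKO and 7 in control (1.60, 0.38 to 3.04), and 0.71 without the 3 cells richest in members. Ifit2 had 27 UMIs in Keap1 cKO, 14 of them in 1 cell, and 1 UMI in control (4.31, 1.71 to 9.66). These folds rest on few control molecules, as the wide intervals show. Oas1a had 26.0 CPM in Keap1 cKO and 21.4 CPM in control (0.28, -0.32 to 0.90), and -0.69 as a mean over cells. Bst2 had 94.5 CPM in Keap1 cKO and 92.8 CPM in control (0.03), and Ifitm3 had 1398 CPM in Keap1 cKO and 1718 CPM in control (-0.30, -0.37 to -0.23).

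The makeup of cluster 2 also differed between the libraries. The 8 macrophage or monocyte markers summed to 11952 CPM in Keap1 cKO and 17381 CPM in control. Among them, Ly6c2, a marker of inflammatory monocytes, had 211 UMIs (87.1 CPM) in Keap1 cKO and 0 UMIs in control. C1qa, a complement gene of macrophages, had 1579 CPM in Keap1 cKO and 2788 CPM in control. Lyz2 had 7626 CPM in Keap1 cKO and 9983 CPM in control. Mrc1, at 601 CPM in Keap1 cKO and 588 CPM in control, was nearly level. So were Csf1r (446 CPM in Keap1 cKO, 451 CPM in control) and Adgre1 (181 CPM in Keap1 cKO, 159 CPM in control). The listed genes C1qb and Cd68 are not given singly. The part of this shift in the members' ratios was not tested. Fewer cells of one kind and less RNA per cell cannot be told apart in such a sum.

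**Figure D2:**
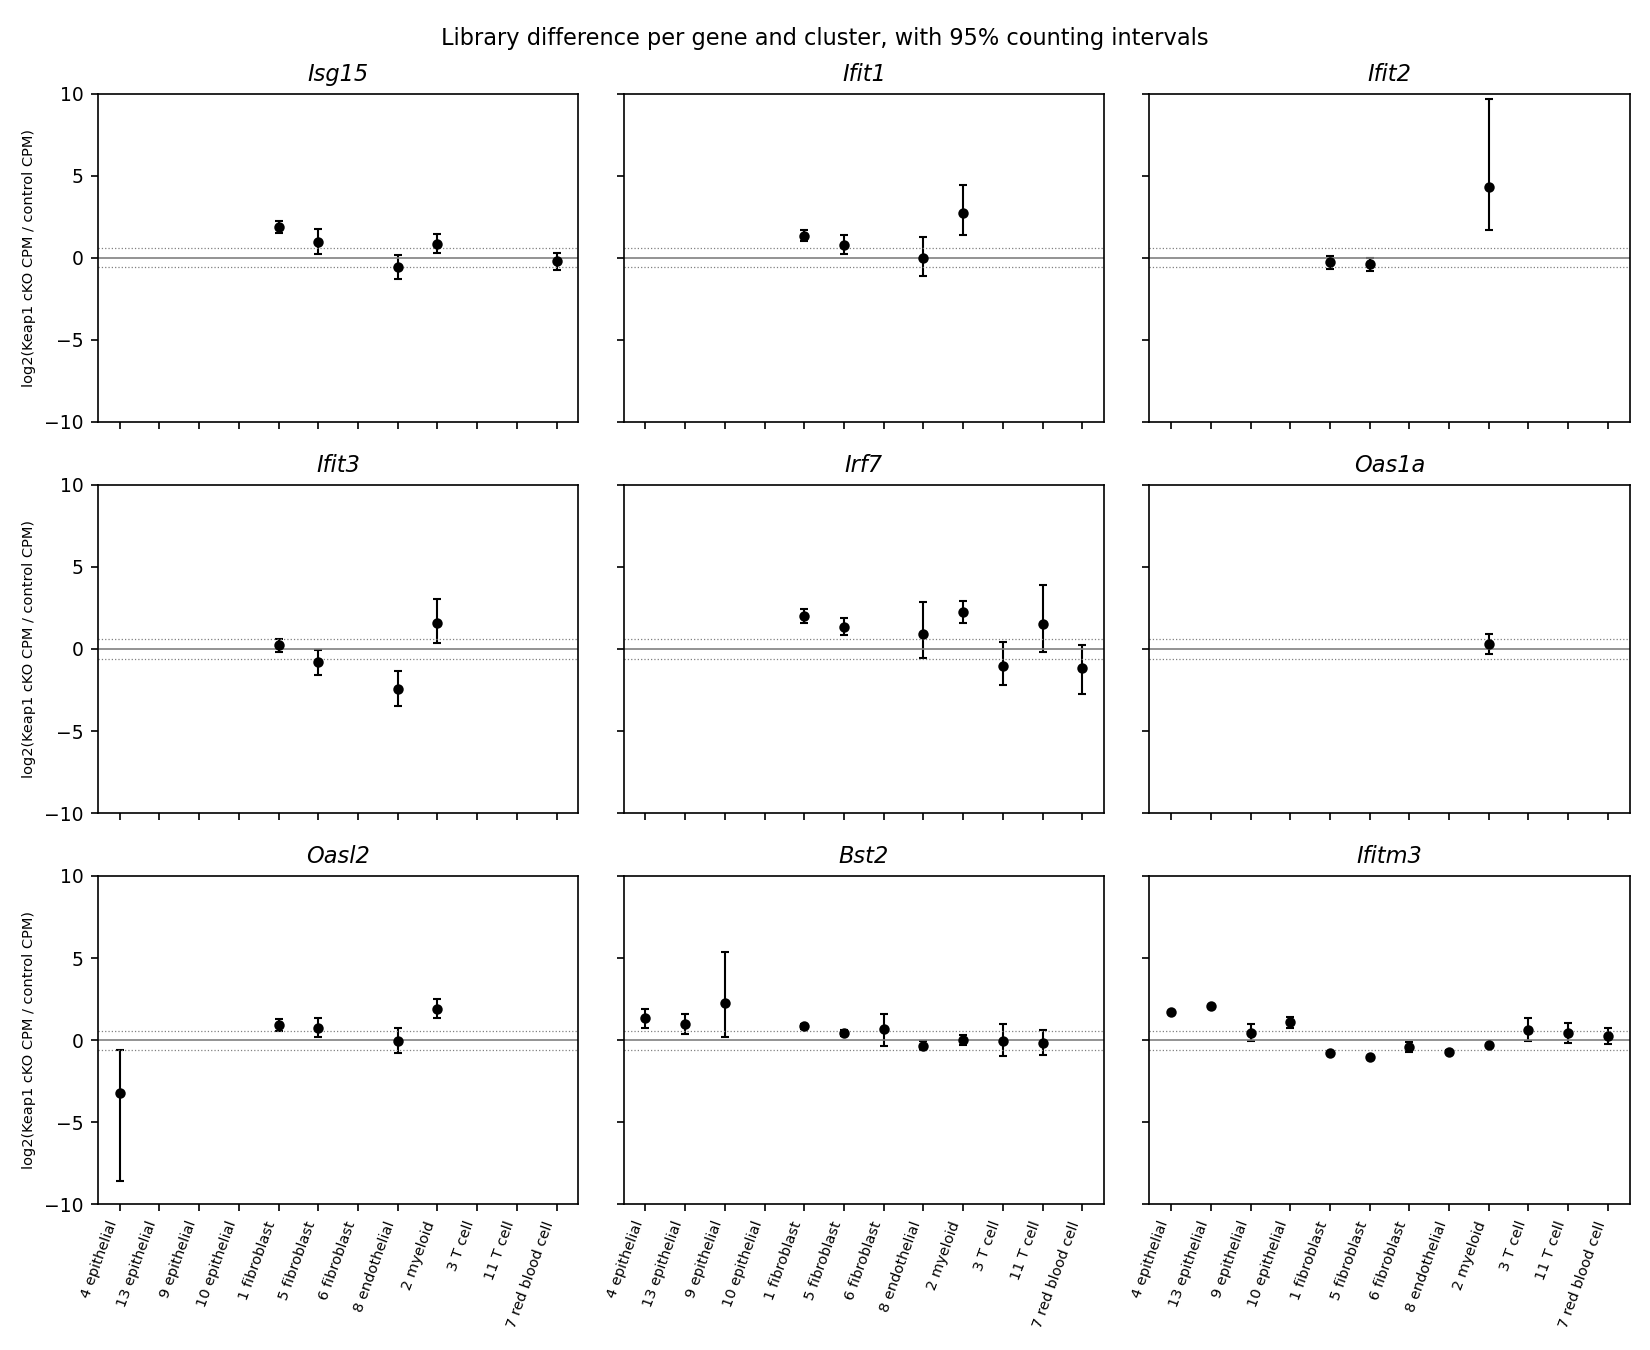
Log2 ratio of Keap1 cKO over control CPM of each member in each cluster where it was measured, with 95% intervals that cover counting error only and dotted lines at 1.5-fold. Irf7 lies above 0 in the fibroblast clusters 1 and 5 and in the myeloid cluster 2, while Ifitm3 lies above 0 in the epithelial clusters 4 and 13 and below 0 in clusters 1, 5 and 8.

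Cluster 8 was led by endothelial genes such as Fabp4, Aqp1, Vwf and Pecam1 and held 203 Keap1 cKO and 53 control cells. Of 7 measured members, 1 was higher and 3 were lower in Keap1 cKO, where 26.1% of all measured genes were higher and 9.84% were lower. The members' median log2 ratio was -0.32 and that of all genes was 0.17. The endothelial markers were level, at 5029 CPM in Keap1 cKO and 5051 CPM in control.

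Ifitm3 reached its highest level of any cluster with at least 50 cells here, with 2588 CPM in Keap1 cKO and 4179.9 CPM in control (-0.69, -0.76 to -0.62). Ifit3 had 16 UMIs (5.67 CPM) in Keap1 cKO and 16 UMIs (30.04 CPM) in control (-2.41, -3.50 to -1.31). Isg15 had 26.2 CPM in Keap1 cKO and 39.4 CPM in control (-0.59, -1.30 to 0.19). Of these 3, the interval of Isg15 includes 0.

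The other measured members of cluster 8 lay near control or had few molecules. Ifit1 had 14.9 CPM in Keap1 cKO and 15.02 CPM in control, and Oasl2 had 32.6 CPM in Keap1 cKO and 33.8 CPM in control. Bst2 had 210.2 CPM in Keap1 cKO and 263 CPM in control (-0.32, -0.59 to -0.05). Irf7 was called higher from 40 UMIs in Keap1 cKO and 4 UMIs in control (0.92, -0.55 to 2.86), with an interval that includes 0. Ifit2 had 6 UMIs in Keap1 cKO and 5 in control, and Oas1a had 5 in Keap1 cKO and 2 in control. T cell markers summed to 638 CPM in Keap1 cKO and 93.9 CPM in control of this cluster. In the 170 Keap1 cKO and 48 control cells not led by markers of another type, Ifitm3 was at -0.64, Ifit3 at -2.52 and Isg15 at -0.52.

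Keratinocytes are the lineage in which the keratin 5 promoter drives the Cre. Cluster 4, with Col17a1, Trp63, Krt5 and Krt14 among its leading genes, held 93 Keap1 cKO and 313 control cells. Cluster 13, led by Mt4, Krt4 and Krt13, held 61 Keap1 cKO and 134 control cells. Of the members, 3 were measured in cluster 4 and 2 in cluster 13, and Ifitm3 and Bst2 were higher in both. The backgrounds were 18.9% of measured genes higher and 18.2% lower in cluster 4, and 14.3% higher and 15.4% lower in cluster 13.

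Ifitm3 had 5795 UMIs (2218 CPM) in Keap1 cKO cells of cluster 4 and 4318 UMIs (665 CPM) in control cells, 3.34-fold apart (log2 1.74, 1.68 to 1.80). In cluster 13 it had 1814 CPM in Keap1 cKO and 424 CPM in control, 4.28-fold apart (2.10, 2.02 to 2.18). Bst2 had 20.7 CPM in Keap1 cKO and 8.16 CPM in control of cluster 4 (1.34, 0.77 to 1.92), and 21.5 CPM in Keap1 cKO and 10.7 CPM in control of cluster 13 (1.005, 0.40 to 1.61). Both genes of the cell surface and endosome thus stood above control in both keratinocyte clusters.

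Most cells of both libraries carried Ifitm3, so the share of positive cells at full depth hid this. In cluster 4, 93.5% of Keap1 cKO cells and 99.4% of control cells had a UMI. After thinning each cell to 3000 UMIs the shares were 96.1% of 77 Keap1 cKO cells and 74.9% of 311 control cells, with 16 shallower Keap1 cKO cells and 2 shallower control cells left out. In thinned cluster 13 they were 100% of 56 Keap1 cKO cells and 59.5% of 131 control cells. Red blood cells, which should hold little of it, gave a background of 16.7% in Keap1 cKO and 14.04% in control at that depth.

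The neutrophil list summed to 6264 CPM in Keap1 cKO and 0.616 CPM in control of cluster 4, and to 16708 CPM in Keap1 cKO and 2.86 CPM in control of cluster 13. That list includes S100a8 and S100a9, which keratinocytes under stress are also known to make. Cxcr2 was at 0 in Keap1 cKO in both clusters, Ly6g was at 0 in cluster 4 and Csf3r at 0 in cluster 13. The other genes of the list are not given singly, so these zeros do not show that neutrophil RNA was absent. Ifitm3 stood at 670.2 CPM in the Keap1 cKO cells of cluster 17, which is led by the neutrophil genes Csf3r and Retnlg. T cell markers summed to 86.9 CPM in Keap1 cKO and 6.00 CPM in control of cluster 4. Without cells led by markers of another type, the Ifitm3 ratio was 1.63 in cluster 4 and 2.09 in cluster 13. The part of other cells' RNA in the Ifitm3 ratios was not tested beyond that setting.

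The remaining members were scarce in keratinocytes. In cluster 4, Isg15 had 10 UMIs in Keap1 cKO and 8 in control, and Oas1a had 8 in Keap1 cKO and 7 in control. Irf7 had 4 UMIs in Keap1 cKO and 5 in control, Ifit1 had 2 in Keap1 cKO and 3 in control, and Ifit2 had 5 in Keap1 cKO and 1 in control. Oasl2 was called lower from 1 UMI in Keap1 cKO and 23 UMIs in control (-3.21, -8.57 to -0.59). That call turned with the grouping of cells, since over all cells the authors annotate as epithelial the ratio was 0.97. Ifit3 had 0 UMIs in Keap1 cKO and 18 in control, of which 16 came from 1 cell, and stayed under the minimum. Each of the 7 members thus had at most 23 UMIs per library in this cluster.

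Other epithelial clusters were shallower or mixed. In cluster 9, led by Slpi, Lce3c and Sprr2d, Bst2 had 21 UMIs in Keap1 cKO and 2 in control (2.25, 0.22 to 5.39), a ratio of -0.15 in thinned cells, and Ifitm3 had 140 CPM in Keap1 cKO and 101 CPM in control (0.47, -0.03 to 0.99). Background shares there were 19.8% higher and 30.2% lower. Cluster 10, annotated as epithelial but led by Ccl5, Dlk2 and Nkg7, had 1 measured member, Ifitm3, with 1385 CPM in Keap1 cKO and 645 CPM in control (1.10, 0.76 to 1.44). Background shares there were 26.3% higher and 21.9% lower.

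**Figure D3:**
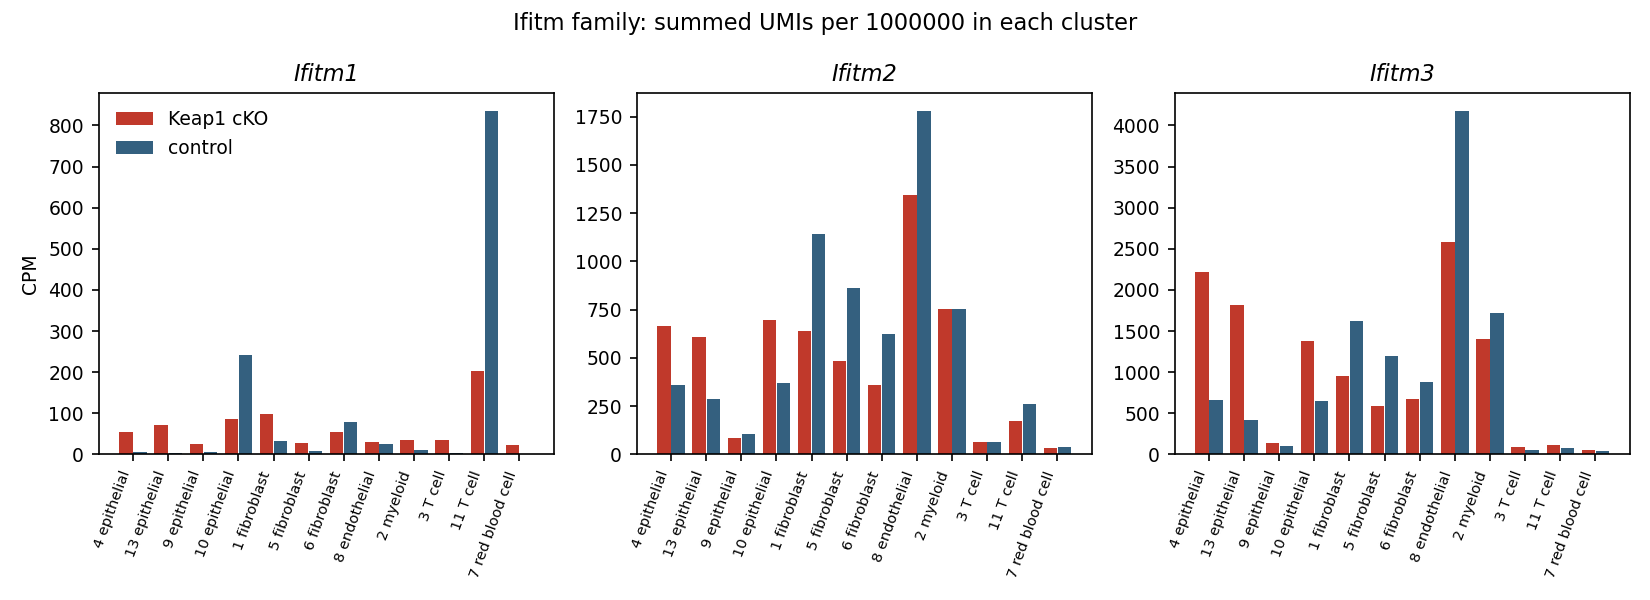
Bars give the summed level of Ifitm1, Ifitm2 and Ifitm3 in each cluster, in CPM on linear axes that differ between genes, for Keap1 cKO (red, left) and control (blue, right). Ifitm3 and Ifitm2 lie above control in clusters 4 and 13 and below control in clusters 1 and 5.

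The neighbours of Ifitm3 in its family gave a similar split for Ifitm2 and another for Ifitm1. Ifitm2 had 666 CPM in Keap1 cKO and 358 CPM in control of cluster 4 (0.90), and 607 CPM in Keap1 cKO and 288 CPM in control of cluster 13 (1.08). In fibroblast cluster 1 it had 642 CPM in Keap1 cKO and 1143 CPM in control (-0.83). Over 12 clusters Ifitm2 was higher in 3 and lower in 4, and Ifitm3 was higher in 4 and lower in 3.

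Ifitm1 was higher in 8 of 12 clusters and lower in 2. It had 55.1 CPM in Keap1 cKO and 6.00 CPM in control of cluster 4 (3.20, 2.68 to 3.75), and 97.8 CPM in Keap1 cKO and 32.9 CPM in control of cluster 1 (1.57, 1.31 to 1.84). The red blood cell cluster, which should lack it, gave 24.0 CPM in Keap1 cKO and 2.09 CPM in control. That difference ran in the same direction, and the part of free RNA in the Ifitm1 ratios was not tested. In T cell cluster 11 Ifitm1 ran the other way, with 202 CPM in Keap1 cKO and 836 CPM in control (-2.05, -2.30 to -1.80).

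T cells held few molecules of most members. In cluster 3, led by Cd163l1, Il17a and Trdc, with 378 Keap1 cKO and 59 control cells, 4 members were measured, 1 higher and 1 lower, where 21.6% of measured genes were higher and 14.3% lower. Irf7 had 10.9 CPM in Keap1 cKO and 21.9 CPM in control (-1.01, -2.20 to 0.41), and Ifitm3 had 90.7 CPM in Keap1 cKO and 59.3 CPM in control (0.61, -0.06 to 1.37). Both intervals include 0. Oasl2 had 20 UMIs in Keap1 cKO and 0 in the few control cells, from which no fold follows, and Bst2 differed by -0.06.

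In T cell cluster 11, led by Ccl5, Ms4a4b, Nkg7 and Trac, with 163 Keap1 cKO and 58 control cells, 3 members were measured and 1 was higher, where 23.2% of measured genes were higher and 9.34% lower. Irf7 had 29 UMIs in Keap1 cKO and 3 in control (1.51, -0.18 to 3.87). Bst2 differed by -0.16 and Ifitm3 by 0.41, each with an interval that includes 0.

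Cluster 6, annotated as fibroblast but led by Myog and Acta2, had 2 measured members. Bst2 had 15 UMIs in Keap1 cKO and 29 in control (0.67, -0.33 to 1.62), and Ifitm3 differed by -0.40, where 13.7% of measured genes were higher and 25.5% lower. In red blood cells, cluster 7, 3 members were measured, none higher and 1 lower, where 17.7% of genes were higher and 18.8% lower. Isg15 had 43.8 CPM in Keap1 cKO and 50.6 CPM in control (-0.21, -0.72 to 0.29) and Irf7 had 6 UMIs in Keap1 cKO and 21 in control (-1.14, -2.74 to 0.21). Ifit1, Ifit3 and Oas1a had 0 UMIs in red blood cells of both libraries. Isg15 was thus found in red blood cells at a level above that of control fibroblasts. In T cell cluster 3 it had 2.17 CPM in Keap1 cKO and 12.5 CPM in control, the last from 4 UMIs, so its level in red blood cells was not shared by all cell types.

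A few cells carried much of the signal. In cluster 1 the 7 members other than Bst2 and Ifitm3 gave 701 UMIs in 124 of 187 Keap1 cKO cells and 815 UMIs in 298 of 545 control cells. A total of 50% of these UMIs lay in 9 Keap1 cKO cells (4.81%) and in 43 control cells (7.89%). The richest Keap1 cKO cell held 99 of them, among them 33 of Ifit1, 20 of Isg15, 16 of Ifit3 and 14 of Oasl2, while the richest control cell held 37. Cells with at least 5 such UMIs made up 16.6% of Keap1 cKO cells (95% exact binomial interval 11.6% to 22.7%) and 6.06% of control cells (4.20% to 8.40%).

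The same count gave 15.1% of Keap1 cKO cells and 5.54% of control cells in cluster 5, and 8.71% of Keap1 cKO cells (5.99% to 12.1%) and 2.37% of control cells (0.649% to 5.95%) in cluster 2. In endothelial cluster 8 it was 7.88% of Keap1 cKO cells and 3.77% of control cells. These shares are at full depth, and their intervals describe cells of 1 library each and compare no genotypes. Thinned to 3000 UMIs, cells in which at least 3 of the 7 members were seen made up 3.37% of Keap1 cKO cells and 1.84% of control cells in cluster 1, 3.39% of Keap1 cKO cells and 1.33% of control cells in cluster 2, and 0.806% of Keap1 cKO cells and 0.738% of control cells in cluster 5. In cluster 8 they were 2 of 175 Keap1 cKO cells and 1 of 50 control cells. These thinned shares rest on few cells, so they give no order of the libraries in any of these clusters. Cells with any of the 7 members in cluster 2 were 37.4% in Keap1 cKO and 41.4% in control at full depth, and 25.1% in Keap1 cKO and 19.3% in control after thinning, so the order of that share turned with depth.

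**Figure D4:**
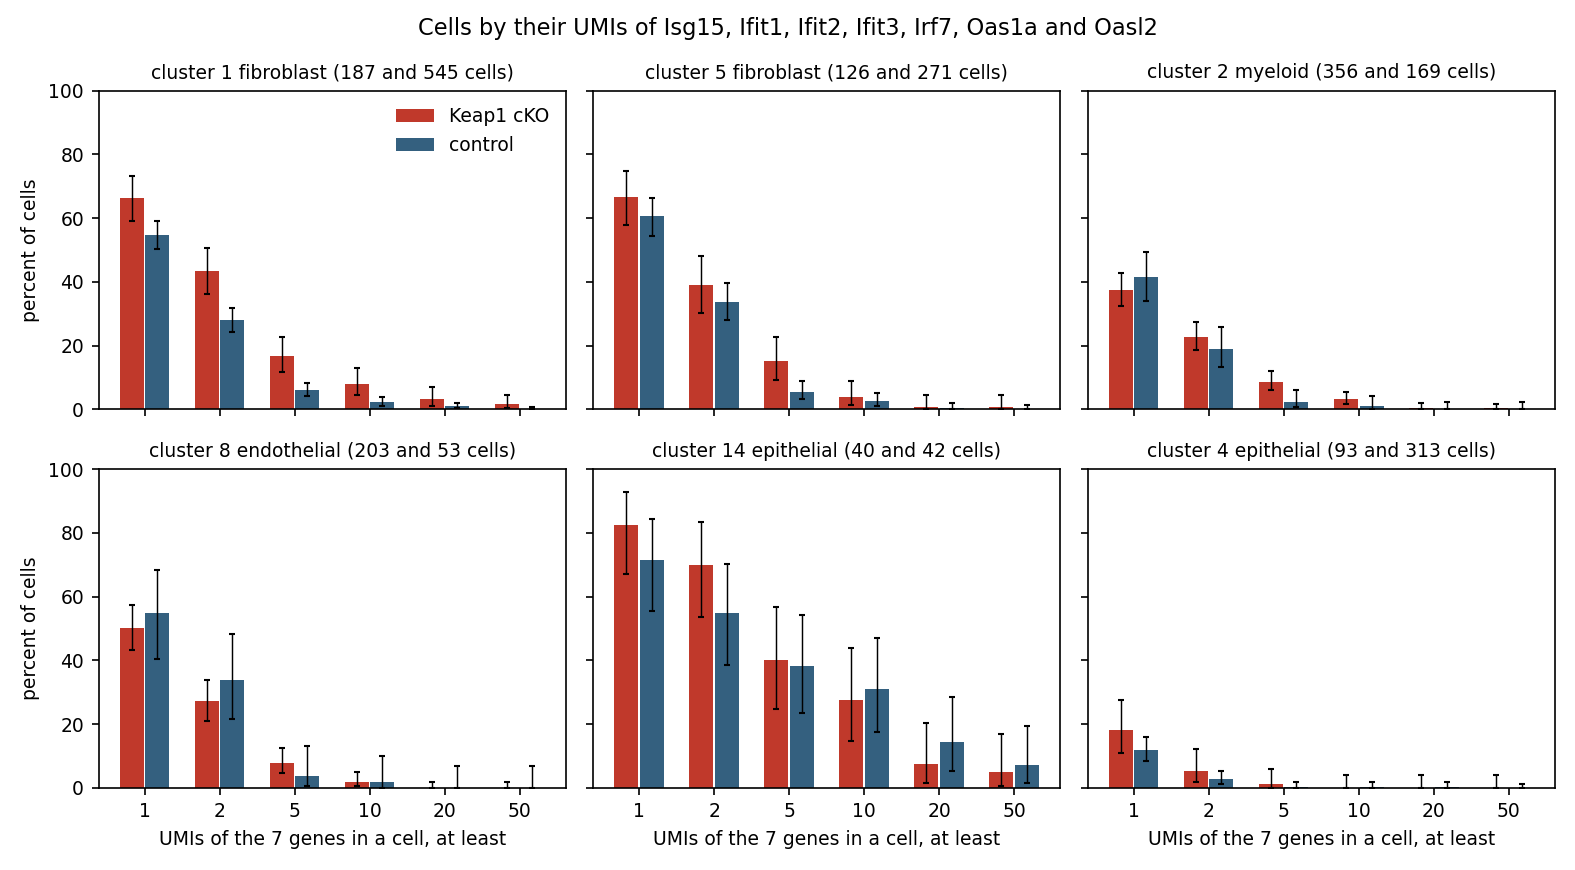
Percent of cells with at least the number of UMIs on the horizontal axis, summed over the 7 members other than Bst2 and Ifitm3, for Keap1 cKO (red, left) and control (blue, right), with 95% exact binomial intervals. At 5 or more UMIs the Keap1 cKO bar stands above the control bar in clusters 1, 5 and 2, at 16.6% against 6.06% in cluster 1.

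Depth differed between the libraries, so shares were also taken at 3000 UMIs per cell. In cluster 1 the median depth was 14798 UMIs in Keap1 cKO and 11930.0 UMIs in control, and thinning kept 178 Keap1 cKO and 543 control cells. Irf7 was then seen in 11.8% of Keap1 cKO cells and 3.13% of control cells, against 28.3% of Keap1 cKO cells and 9.54% of control cells at full depth. Isg15 was seen in 7.87% of Keap1 cKO cells and 2.58% of control cells, against 20.9% of Keap1 cKO cells and 7.89% of control cells at full depth. The order of the libraries was the same at both depths.

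In cluster 2, 295 Keap1 cKO and 150 control cells were kept and Irf7 was seen in 12.2% of Keap1 cKO cells and 6.00% of control cells. Red blood cells at that depth gave 0% in both libraries for Ifit1. For Irf7 they gave 2.50% in Keap1 cKO and 2.81% in control, but their Irf7 lay partly in cells that also held Isg15 and Rsad2, so this share is no clean measure of free RNA. T cell cluster 3 gave 3.01% in Keap1 cKO (11 of 366 cells) and 1.75% in control (1 of 57 cells) for Irf7 at the same depth.

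Clusters with under 50 cells in a library gave values only. Cluster 14, an epithelial cluster led by Psca, Reg3g and Ltf with 40 Keap1 cKO and 42 control cells, held Isg15, Irf7 and Ifit1 at high levels in both libraries and Ifit2 at 0 UMIs in both. Isg15 had 140 CPM in Keap1 cKO and 179 CPM in control, Irf7 had 133 CPM in Keap1 cKO and 258 CPM in control, and Ifit1 had 61.3 CPM in Keap1 cKO and 244 CPM in control. In each library 2 cells held over 50% of the UMIs of the 7 members (56.7% in Keap1 cKO and 51.6% in control). The richest Keap1 cKO cell had 81 UMIs of Irf7, 60 of Isg15 and 0 of Ifit1, and the richest control cell had 73 of Ifit3, 55 of Ifit1, 31 of Irf7 and 22 of Isg15.

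In cluster 17, a neutrophil-led cluster with 56 Keap1 cKO and 4 control cells, Isg15 had 209 CPM and Oasl2 161 CPM in Keap1 cKO, against 17 and 5 UMIs in the 4 control cells. In cluster 12, annotated as B cell but led by Cd207, H2-Eb1 and Cd74, Bst2 had 266 CPM in 178 Keap1 cKO cells and 177 CPM in 34 control cells. In lymphatic endothelial cluster 18, led by Ccl21a, Prox1 and Lyve1, Ifitm3 had 3004 CPM in 15 Keap1 cKO cells and 3505 CPM in 27 control cells. In cycling epithelial cluster 15 it had 1526 CPM in 7 Keap1 cKO cells and 496 CPM in 75 control cells. In cluster 16, 47 of 53 Isg15 UMIs of Keap1 cKO came from 1 cell, and control had 2 UMIs. Cluster 19, led by muscle genes, held 1 UMI of the 7 members in Keap1 cKO.

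Over the profiles with at least 50 cells, the members did not share 1 order. Ifit1 was highest in Keap1 cKO cells of cluster 1, at 54.7 CPM, and its interval did not overlap the next profile, 22.6 CPM in Keap1 cKO cells of cluster 5. Irf7 was highest in Keap1 cKO cells of cluster 2 (63.6 CPM), followed by Keap1 cKO cells of cluster 1 (40.7 CPM). Ifit2 was highest in control cells of cluster 5 (44.1 CPM), with an interval that overlapped the next. Oas1a was highest in cluster 2, with overlapping intervals in Keap1 cKO (26.0 CPM) and control (21.4 CPM). Bst2 was highest in Keap1 cKO cells of cluster 12 (266 CPM) and next in control cells of cluster 8 (263 CPM), which overlapped.

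Across 27 such profiles, on log2(CPM + 10), Ifit1 and Ifit3 had a Pearson correlation of 0.837, Irf7 and Oasl2 0.747, and Isg15 and Ifitm3 0.00. These profiles share 2 libraries and differ in depth, so the correlations are a description. Ifit1 (0.905) and Oasl2 (0.886) lay nearest to the members' mean, and Oas1a (0.516) and Ifitm3 (0.50) farthest. Each member is part of that mean, which raises its value, so these values do not compare with those of outside genes. Outside the interferon lists, the 10 genes most like that mean among 7460 ranked were Hsd17b11 (0.913), Myadm (0.895), Stard9 (0.887), Slc49a4 (0.882), Plod3 (0.879), Arf2 (0.868), Csgalnact2 (0.867), Klf2 (0.867), B4galt5 (0.864) and Plekho2 (0.861).

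Of 21 interferon genes listed as ligands, 3 were analysed here. Ifnb1 had 0 UMIs in Keap1 cKO and 2 in control, both in cluster 2, and Ifnz had 4 UMIs in Keap1 cKO and 0 in control. Ifng, which T and NK cells make, had 65 UMIs in Keap1 cKO and 108 in control, of which 51 in Keap1 cKO and 85 in control lay in T cell cluster 11. There it had 43.1 CPM in Keap1 cKO and 244 CPM in control (-2.50, -3.03 to -1.98), from 19 of 163 Keap1 cKO cells and 27 of 58 control cells.

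Of 47 other genes of the type I response that were analysed, 45 were measured in cluster 2, and 27 of them were higher and 1 lower (median log2 ratio 0.84), against 15.8% higher and 10.9% lower over all genes. In cluster 1, 16 of 36 were higher and 4 lower (0.42), against 13.9% and 16.1% over all genes. In cluster 5 the count was 7 higher and 7 lower of 33 (0.17), against 13.2% higher and 18.2% lower over all genes. In endothelial cluster 8, 3 of 29 were higher and 8 lower (-0.41), against 26.1% higher and 9.84% lower. With median-of-ratios scaling 13 were lower there, and at a fold of 2 only 1 was higher and 1 lower. In T cell cluster 3, 2 of 27 were higher and 10 lower (-0.33), against 21.6% higher and 14.3% lower. The list's median and the members' median had the same sign in clusters 1, 2, 3, 4, 5, 7, 8 and 13. They had opposite signs in clusters 6, 9, 10 and 11, where 1 to 3 members were measured. Clusters 4, 7 and 13 also had only 2 or 3 measured members. The list's median was 0.01 in cluster 13 and -0.003 in cluster 11, so its sign says little there.

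Some genes of this list had wide intervals. In cluster 1, Ifi44 had 34 UMIs in Keap1 cKO and 1 UMI in control (6.30, 3.73 to 11.65), and Oas2, a relative of Oas1a, had 36 UMIs in Keap1 cKO and 16 in control (2.39, 1.501 to 3.34). In cluster 2, Ms4a4c, which monocytes also express, had 132 UMIs in Keap1 cKO and 3 in control (5.01, 3.43 to 7.31), and Oas1g, the near-copy of Oas1a, had 20 UMIs in Keap1 cKO and 2 in control (2.88, 0.83 to 6.02). In keratinocyte cluster 4, 5 of 21 measured genes of the list were higher and 5 lower, against 18.9% higher and 18.2% lower over all genes. Ifi204 was among the higher ones (2.58, 1.46 to 3.81). Isg20 (-1.62, -2.63 to -0.75) and Tor3a (-1.46, -2.20 to -0.80) were among the lower ones. In keratinocyte cluster 13, 4 of 18 were higher and 6 lower, against 14.3% higher and 15.4% lower. Ifi27 was lower in 12 of 12 clusters, with log2 ratios between -3.15 and -0.73. Red blood cells were among them, with 2.48 CPM in Keap1 cKO and 13.6 CPM in control (-2.45, -4.82 to -0.75). The part of free RNA in the Ifi27 ratios was not tested.

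Of the 10 signalling genes, 1 was higher and 1 lower in cluster 1 and 2 were higher and none lower in cluster 2, near the shares over all genes. In cluster 5, 4 of 9 were higher and 1 lower, against 13.2% higher and 18.2% lower over all genes. Stat2 was higher in cluster 1 (0.73, 0.41 to 1.05) and in cluster 2 (0.91, 0.45 to 1.38). The RNA sensor genes Ddx58 and Dhx58 were higher in cluster 2, at 1.10 and 1.17. There 6 of 12 measured sensors were higher and none lower, against 15.8% higher and 10.9% lower over all genes. Usp18, which takes ISG15 off its targets and damps the receptor, was higher in clusters 1 (0.88), 5 (1.33) and 2 (1.29), and had 1 UMI in Keap1 cKO and 49 in control of cluster 4. Socs3, an inhibitor of JAK signalling, was lower in cluster 1 at 41.4 CPM in Keap1 cKO and 115 CPM in control (-1.48), in cluster 5 (-2.98) and in cluster 2 (-1.11).

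The interferon gamma response list was described in the same way. In endothelial cluster 8, 13 of 19 were lower and 1 higher (median -0.89), against 9.84% lower and 26.1% higher over all genes, and the members' median was also below 0. Psmb8, an immunoproteasome subunit, had 122 CPM in Keap1 cKO and 325 CPM in control there (-1.41). In T cell clusters 3 and 11, 10 of 16 were lower in cluster 3 and 11 of 17 in cluster 11, with 1 higher in each, against 14.3% and 9.34% lower over all genes. In cluster 2, 6 of 18 were lower and 2 higher, against 10.9% lower and 15.8% higher, among them the lower Iigp1 (-2.57) and Gbp4 (-2.55), where most type I genes were higher.

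In keratinocytes 6 of 8 of these genes were higher and 1 lower in cluster 4, and 4 of 5 were higher in cluster 13, against 18.9% higher in cluster 4 and 14.3% higher in cluster 13 over all genes. Psmb8 had 16.5 CPM in Keap1 cKO and 5.39 CPM in control of cluster 4 (1.61, 0.93 to 2.30), and 27 UMIs in Keap1 cKO and 7 in control of cluster 13 (2.74, 1.51 to 4.19). In the same cluster 4, Psmb10 was at 1.25. The intervals of Gbp2, Tap1 and Socs1, also called higher there, include 0. Irf1, of the signalling list, was at 1.28, where 2 of 9 measured signalling genes were higher and 3 lower. Of the interferon gamma receptor genes, Ifngr2 was at 1.03 and Ifngr1 at 0.44 in cluster 4. In cluster 13, Ifngr1 was at 1.09 and Ifngr2 at 0.59.

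**Figure D5:**
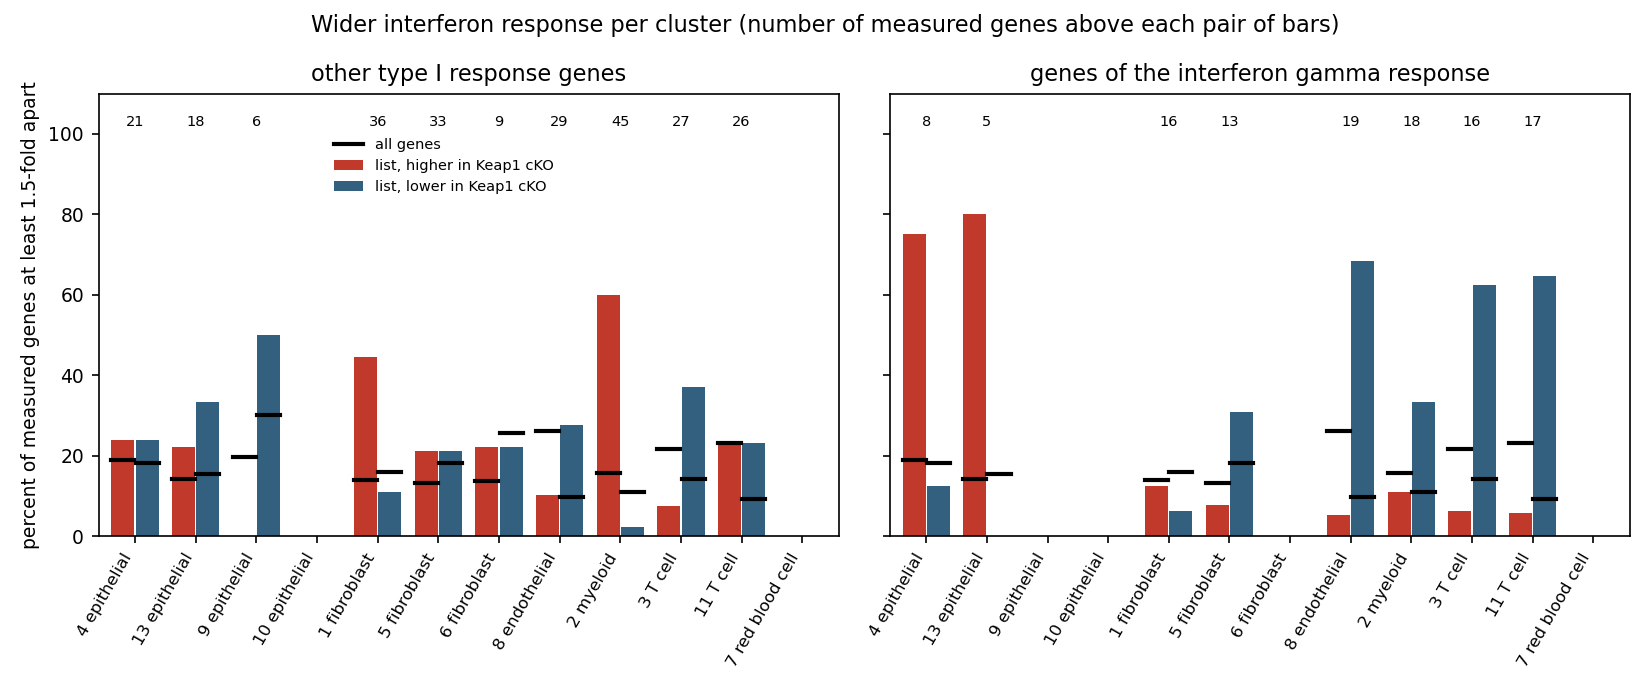
Percent of measured genes at least 1.5-fold higher or lower in Keap1 cKO per cluster, for the other type I response genes on the left and the interferon gamma response genes on the right, in clusters with at least 5 measured genes of the list. Black lines mark the percent over all genes. On the higher side the type I list lies farthest above it in clusters 1 and 2. It also lies above it in clusters 4, 5, 6 and 13.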

How the data were processed

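Single cells of 1 Keap1 cKO and 1 control esophagus library were analysed. Libraries were made with 10x Genomics 3′ chemistry, per the labels' protocols. The tools were Seurat 4.0.2, R 4.1.1 and Cell Ranger 6.0.1, with build mm10, per the submitters' processing notes; the sources used here do not name the annotation behind the counts. The authors deposited natural log values of counts scaled to 10000 per cell, as read from the values, whose back-transformed sum was 10000.00 in all 4853 cells. UMI counts were recovered from each cell's smallest step, and 100% of positive values came out whole within 0.01 UMIs. Other cell information in the authors' deposited table gave each cell's library, cluster and cell type, used as given, and 0 columns of per-sample values were left unused. The depth was at least 500 UMIs per Keap1 cKO cell and 502 per control cell.

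UMIs were summed per cluster and library. Sums have exact Poisson intervals, ratios conditional binomial intervals and shares Clopper-Pearson intervals, at 95%, and PCR and capture are outside them. Where 1 library had 0 UMIs, 3 counts over the group stood in as the floor. Clusters under 50 cells in a library gave no ratio. Clusters 6, 10, 12 and 16 are called by number because their leading genes go against or do not carry their annotation. The members and gene lists were chosen with earlier results of these data known. The named pathway genes were, per list and cluster, the 2 most abundant and the 2 with the largest absolute log2 ratio from 20 UMIs; others named, such as Ifi27 across clusters, were chosen after their values were seen. Scrublet marked 16 of 2381 Keap1 cKO cells (0.672%) and 27 of 2472 control cells (1.09%), and these stayed in. The libraries shared 5 barcodes, 1 of them in the same cluster. Positions come from GENCODE and sequences from RefSeq (GRCm38.p6). Alternatives changed the scaling, the cells, the depth, the minimum and the fold. Scripts were tested on simulated data. Python 3.11.15, numpy 2.4.6, scipy 1.17.1, pandas 2.3.3, scanpy 1.11.5 and matplotlib 3.10.9 were used. A result that needs an item withheld for evaluation is not reported here.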

Additional observations from a re-analysis of the deposited data

Results flagged for a closer look

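In 3 members the log2 ratio of Keap1 cKO over control ran in opposite directions in different clusters, each with a 95% counting interval that excludes 0. The differences between clusters were not tested, since each genotype had 1 library. Ifitm3 was at 1.74 in keratinocyte cluster 4, 2.10 in keratinocyte cluster 13 and 1.10 in cluster 10, and at -0.76 and -1.02 in fibroblast clusters 1 and 5 and -0.69 in endothelial cluster 8. Ifit3 was at 1.60 in myeloid cluster 2, at -0.77 in fibroblast cluster 5 and at -2.41 in endothelial cluster 8. Oasl2 was at 0.92 in fibroblast cluster 1, 0.77 in fibroblast cluster 5 and 1.90 in myeloid cluster 2, and at -3.21 in keratinocyte cluster 4, where it rests on 1 UMI in Keap1 cKO and 23 UMIs in control.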

How the results depend on the processing

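No paired analysis was possible because each genotype had 1 library. Leaving out the 3 cells richest in the 7 members other than Bst2 and Ifitm3, or the cells led by another type's markers, was an alternative chosen after seeing the data. Of 52 member ratios, the direction was kept by 50 with median-of-ratios scaling, 50 without doublets, 51 without cells led by another type's markers, 49 as a mean over cells, 48 without the deepest cells, 47 without the 3 cells richest in members, 42 with the authors' cell types, and 41 of 49 after thinning and 42 of 46 with red blood cell UMIs subtracted. Among called ratios whose interval excludes 0, the sign turned for 2, and the cause was not tested. Oasl2 in cluster 4 was 0.97 with the authors' cell types, and Bst2 in cluster 9 was -0.15 after thinning. Called ratios with an interval that includes 0 are not part of that count. The median member ratio was 0.20 in cluster 5 without the 3 richest cells, -0.77 in cluster 7 without those 3 or without the 3 richest in the 7 members, and -0.27 in cluster 11 after thinning. At a fold of 2, type I genes higher and lower numbered 8 and 2 in cluster 1, 1 and 6 in cluster 3, 3 and 3 in cluster 4, 4 and 4 in cluster 5, 1 and 1 in cluster 8 and 2 and 1 in cluster 11, with 16 higher in cluster 2. Interferon gamma response genes were then 0 higher and 0 lower in cluster 1, 0 higher in clusters 2, 5 and 8, 5 lower in cluster 3 and 8 lower in cluster 8. Median-of-ratios scaling gave 2 type I genes lower in cluster 1, 13 lower in cluster 8 and 2 interferon gamma genes higher in cluster 5, and it shifted all log2 ratios by 0.13 in cluster 6, -0.16 in cluster 8, 0.17 in cluster 9 and -0.14 in cluster 11. Counts under 20 UMIs limit what can be said of the members in keratinocytes and T cells.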
